A study of Bos taurus with 8 samples.

Results

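Acute phase proteins are plasma proteins whose output by hepatocytes shifts during inflammation. This account follows the genes of 10 of them in bovine liver: haptoglobin (HP), hemopexin (HPX), the pentraxins serum amyloid P component (APCS) and C-reactive protein (CRP), serum amyloid A3 (SAA3), orosomucoid (ORM1), the inter-alpha-trypsin inhibitor heavy chains ITIH3 and ITIH4, fetuin-A (AHSG) and albumin (ALB). They were chosen by name, as the probes that carry these gene symbols on the array, which gave 10 genes of 14952 names on the array, and 10 of its 15008 distinct probes, 1 per gene. The arrays came from Holstein bull cattle, 5 to 6 months old and each with a rumen fistula, in a trial of 11 that ate hay for 11 days, then a high-grain ration for 2 days to bring on subacute ruminal acidosis (SARA), then hay again. An egg-yolk immunoglobulin against bacterial lipopolysaccharide (LPS) was put into the rumen every day for 14 days in a Latin square, at 0, 2 or 4 g per head per day, with 0 g as the control. The 8 arrays used here were from 2 days after the challenge: animals 19, 20, 23 and 24, each with 1 array in the 0 g group and 1 in the 4 g group. All had the same fistula, feeds and challenge, so that no array shows unchallenged liver. The order in which an animal received its doses was not given in the labels, and dose and period cannot be told apart within an animal.

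In the acute phase response, interleukin-6 released by macrophages acts on hepatocytes through STAT3, and interleukin-1 and tumour necrosis factor act through NF-kB. Positive acute phase genes are then transcribed more and negative ones less. In cattle haptoglobin and serum amyloid A are the main positive acute phase proteins and are used as markers of inflammation, while albumin is a negative one. Fetuin-A is counted as a negative one in several species.

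The probes read short stretches of the transcripts, and their sequences are shown because what the arrays say about HP, APCS, AHSG, ALB, ORM1, ITIH4 and SAA3 rests on them. Capitals mark AATAAA, the hexamer that signals polyadenylation near the 3′ end of many mRNAs. Whole 60-base probes are given for HP, AHSG and ALB, the first 30 bases for APCS and SAA3, and the last 30 for ORM1 and ITIH4, all 5′ to 3′ as the array files list them.
HP: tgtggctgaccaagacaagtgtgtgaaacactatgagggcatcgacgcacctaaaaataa
APCS: gacgctaaattgtagatctgtagctctttc
AHSG: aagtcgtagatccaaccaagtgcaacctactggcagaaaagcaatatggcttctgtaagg
ALB: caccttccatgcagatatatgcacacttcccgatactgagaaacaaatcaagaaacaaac
ORM1: ggttgcatcAATAAAgtttgtttcggtgca
ITIH4: agggagaggtatttgcactcAATAAAataa
SAA3: ccccaagatcgaacccggccaaggagaaaa
On the cattle assembly UMD 3.1 the HP probe lies at chr18:39173512-39173571 on the minus strand, APCS at chr3:10245793-10245852 on the minus strand and CRP at chr3:10102772-10102831 on the plus strand, so that both pentraxin genes are on chromosome 3. ITIH3 (chr22:48634807-48634866, minus) and ITIH4 (chr22:48630314-48630373, plus) are neighbours on chromosome 22. ALB is at chr6:90246425-90246484 (plus), HPX at chr15:47235070-47235129 (plus) and ORM1 at chr8:105220380-105220439 (plus). The 60 bases of AHSG are spread over 918 bases of genome (chr1:81203522-81204439, minus), so this probe bridges at least 1 intron. The files give the SAA3 probe, designed on an expressed sequence tag, no genome position. Exon and UTR annotation of the probes was not used here. The longest run that a member's probe shares with any other probe on the array was 12 to 16 bases, and with another member's probe 6 to 8 bases.

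The tissue label is liver, but rumen epithelium appears as the RNA source in the extraction text. On every array all 10 hepatocyte markers carried the scanner software's flag for signals well above background. Their mean level, as log2 signal relative to the array's 75th percentile, ran from 5.15 to 5.72. Of 9 rumen epithelium markers 1 to 3 were well above background. KRT5 was so on 8 arrays, KRT6A and PKP1 on 1 each, and KRT14, KRT4, DSG3, DSC3, LY6D and KRTDAP on 0 arrays. The 8 pancreatic acinar markers summed, on a linear scale, to 1691 times the array's 75th percentile on the 0 g array of animal 23, where their mean log2 level was 6.35. On the other 7 arrays that mean ran from −5.33 to −3.64, and 6 or fewer of the 8 markers were well above background there. Without that array, and with no block, 0 of the 9 tested members passed limma's adjusted p. CRP was then at −0.26 (−0.0071 with it), ITIH4 at 0.035 (0.13), AHSG at 0.090 (0.025), ORM1 at −0.14 (−0.077), ITIH3 at 0.027 (0.043), ALB at 0.017 (0.037) and HPX at −0.051 (−0.077), while HP was at −0.96 and APCS at −0.85. These are log2 differences, 4 g minus 0 g. The 75th percentile of the signal was 125.8 on the 4 g array of animal 19 and 126.3 on the 0 g array of animal 20, against 218.0 to 311.7 elsewhere. No spot carried the scanner software's flag for saturation, and the number of arrays limits the precision.

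On probes with 2 separate levels, the arrays of animals 23 and 24 parted more often by dose than by animal, unlike those of animals 19 and 20. The check counted probes on which 4 arrays of a slide row fell into 2 pairs at least 1.5 log2 units apart and further apart than the arrays within a pair. In row 1, which held animals 19 and 20, 42 probes parted the arrays by animal, 1 by dose and 293 into the 2 dim arrays against the others, which is the remaining way to pair 4 arrays. In row 2, which held animals 23 and 24, 2 probes parted them by animal, 41 by dose and 7 in the remaining way. The immune GTPase gene GIMAP6, for example, stood at 0.15 and −0.53 on the arrays of animal 19 and at −5.34 and −4.93 on those of animal 20. On the 0 g arrays of row 2 it stood at 0.42 and 0.37, on the 4 g arrays at −4.78 and −4.62. GIMAP6 was chosen after its values were seen. Among 26 probes with 2 such levels over all 8 arrays and like levels within animals 19 and 20, 13 parted row 2 by dose and 0 by animal. In row 2 the dose and this split cannot be told apart, and each member's difference is therefore also given for slide row 1 alone, that is animals 19 and 20.

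Of the 10 genes, 9 were well above background on 8 arrays and were tested, and SAA3 was well above background on 0 arrays. With limma, 0 of the 9 differed between 4 g and 0 g at an adjusted p under 0.05, as did 0% of 10985 tested probes. At an unadjusted p under 0.05 there was 1 member, APCS, where 1.1% of all tested probes passed. The log2 difference was below 0 for 5 of the 9 and above 0 for 4, and its median was −0.0071. Over all tested probes the median was 0.018. The median of the 9 in the single animals was −0.74, −0.46, −0.12 and 0.37 (animals 19, 20, 23 and 24). For HPX, CRP, ORM1, ITIH3, ITIH4 and ALB the 95% interval of the difference lay within 1 log2 unit of 0, which is a share of 6 of 9 where 64.3% of all tested probes did so. The share is close to that of all tested probes and is no trait of the members. A change of 2-fold or more lay outside the interval for these 6 genes, whereas for HP, APCS and AHSG it did not. These intervals are unadjusted and take the labels of row 2 as given.

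**Figure D1:**
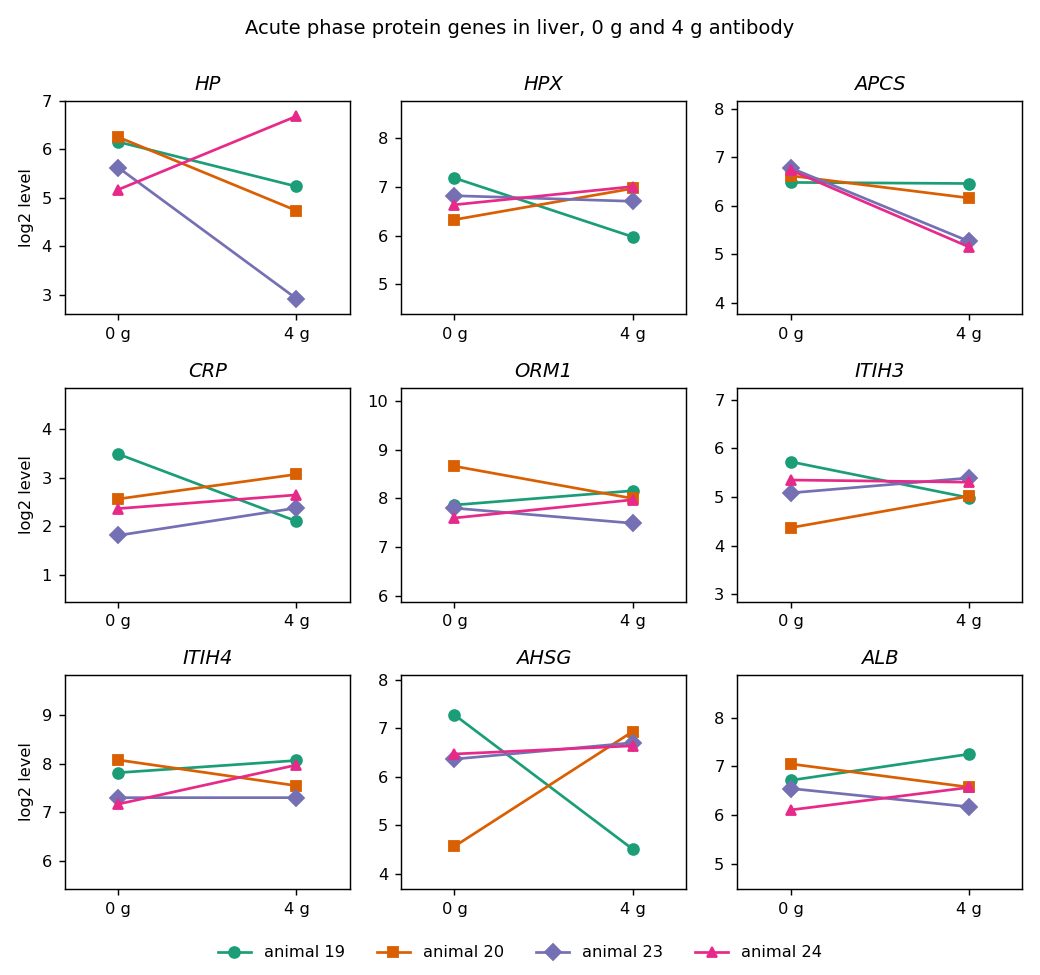
Log2 level (relative to the array's 75th percentile) of the 9 measured genes at 0 g and 4 g, 1 line per animal, each panel spanning the same number of log2 units. HP at 4 g runs from 2.92 in animal 23 to 6.68 in animal 24, APCS is lowest at 4 g in animals 23 and 24, and the steepest lines of AHSG belong to animals 19 (7.27 to 4.51) and 20 (4.57 to 6.93).

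Haptoglobin binds free haemoglobin so that macrophages can take it up. Its level was 6.15, 6.25, 5.62 and 5.17 at 0 g in animals 19, 20, 23 and 24, and 5.23, 4.74, 2.92 and 6.68 at 4 g. The 0 g arrays ran from 5.17 to 6.25, while those at 4 g held both the lowest and the highest level of all 8 and overlapped them. The mean was 5.80 ± 0.50 (SD, n = 4) at 0 g and 4.89 ± 1.55 (SD, n = 4) at 4 g. The log2 difference was −0.90 (SE 0.64, 95% interval −2.46 to 0.65, limma adjusted p = 1.00), lower at 4 g in 3 of 4 animals, by −0.92, −1.51 and −2.70, and higher by 1.51 in animal 24. Single animals moved this value: it was −0.31 without animal 23 and −1.71 without animal 24. In animals 19 and 20 alone it was −1.22, in animals 23 and 24 alone −0.59. Haptoglobin is also stored in neutrophils. Of 7 neutrophil markers 5 or 6 were well above background and S100A9 on 0 arrays, and their summed linear level was 4.48 to 6.85 at 0 g and 4.11 to 6.37 at 4 g. The lowest sum, 4.11, was on the 4 g array of animal 23, which also had the lowest HP. By mean log2 level of the same markers that array stood at −2.85, and the lowest, −3.28, was the 0 g array of animal 19. LCN2, 1 of the 7 markers, is also on the list of other positive acute phase genes. The part of these cells in the HP difference was not tested. The hepatocyte markers averaged 5.32 on the 4 g array of animal 23. In bulk liver, fewer cells of a type and less RNA per cell cannot be told apart.

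Hemopexin binds free haem, the cargo that haptoglobin does not take. It stood at 7.19, 6.33, 6.82 and 6.64 at 0 g in animals 19, 20, 23 and 24, and at 5.98, 6.97, 6.71 and 7.01 at 4 g. The groups overlapped, and the animals were split, with HPX lower at 4 g in 2 and higher in 2. The log2 difference was −0.077 (SE 0.35, 95% interval −0.92 to 0.77, limma adjusted p = 1.00), and −0.28 in row 1 alone. Among 9 measured genes of haemoglobin and haem clearance 0 passed the test (0 at an unadjusted p under 0.05), with 4 lower and 5 higher (median 0.035). The 3 of smallest p were the haem oxygenase HMOX1 at −0.21 (SE 0.30), the biliverdin reductase BLVRA at −0.15 (SE 0.26) and the transferrin receptor TFRC at 0.16 (SE 0.27). The scavenger receptor CD163, through which macrophages take up haptoglobin with its haemoglobin, was measured too and is one of the 5 that were higher.

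Serum amyloid P component and C-reactive protein are pentraxins, ring-shaped proteins that bind microbes and dying cells and activate complement. APCS stood at 6.48, 6.62, 6.78 and 6.73 at 0 g in animals 19, 20, 23 and 24, and at 6.46, 6.16, 5.27 and 5.15 at 4 g. All 0 g levels lay above all 4 g levels, the nearest being 6.48 and 6.46, both of animal 19. It was 1 of 9 members without overlap, where 0.602% of tested probes had none. The mean was 6.65 ± 0.13 (SD, n = 4) at 0 g and 5.76 ± 0.65 (SD, n = 4) at 4 g. The log2 difference was −0.89 (SE 0.34, 95% interval −1.71 to −0.074), with a limma unadjusted p of 0.0369 and an adjusted p of 1.00. APCS was lower in 4 of 4 animals, a pattern that 2.16% of tested probes showed, and 0 of 9 members were higher in 4 of 4, as 2.93% of tested probes were. The difference was −1.51 and −1.58 in animals 23 and 24, but −0.022 and −0.46 in animals 19 and 20, where it averaged −0.24. The 2 low arrays are those on which GIMAP6 and the rest of the 13 probes counted above also stood apart from the 0 g arrays of the same row, while 11 of the 26 probes kept 1 level across that row. Without any 1 animal in turn the value stayed between −1.18 and −0.66.

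**Figure D2:**
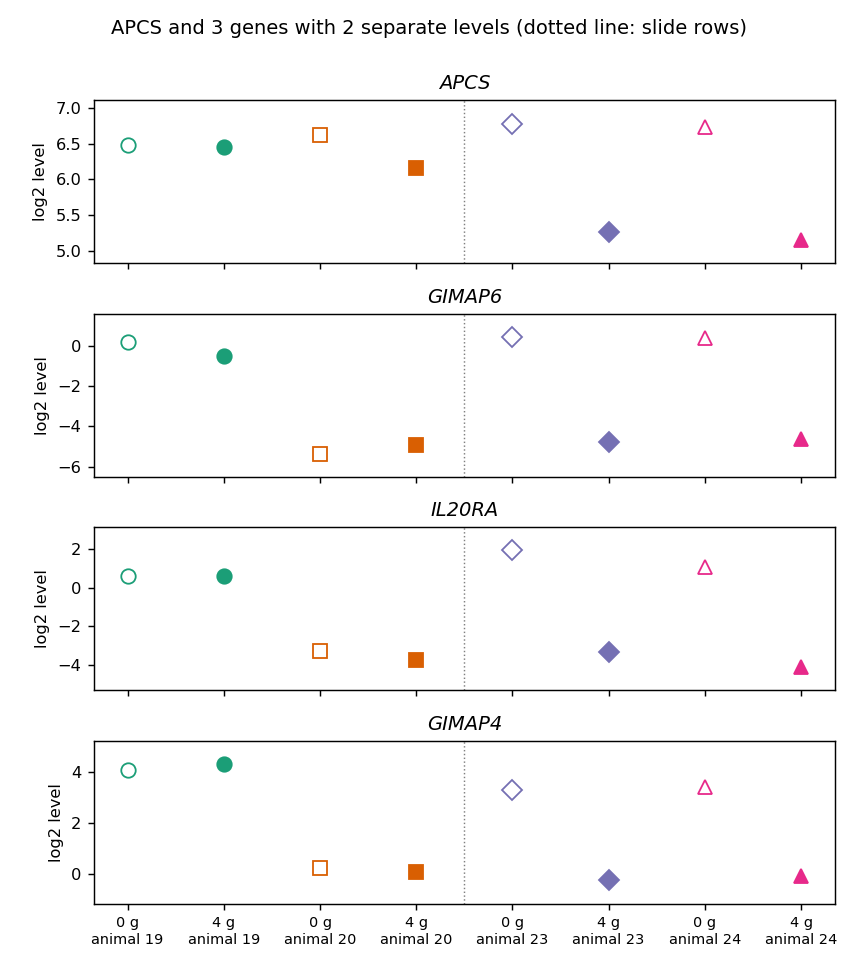
Log2 level of APCS and of 3 genes with 2 separate levels (GIMAP6, IL20RA and GIMAP4, chosen after their values were seen) on the 8 arrays, open symbols 0 g and filled symbols 4 g, with a dotted line between the slide rows. In animals 19 and 20 the 3 genes keep 1 level per animal, and in animals 23 and 24 they follow the dose label, as APCS does with 6.78 and 6.73 against 5.27 and 5.15.

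CRP behaved differently in the single animals. It stood at 3.49, 2.56, 1.81 and 2.36 at 0 g in animals 19, 20, 23 and 24, and at 2.10, 3.07, 2.38 and 2.65 at 4 g. It was lower at 4 g in animal 19, by −1.38, and higher in the other 3, by 0.51, 0.56 and 0.28. The log2 difference was −0.0071 (SE 0.38, 95% interval −0.93 to 0.91, limma adjusted p = 1.00), and without animal 19 it was 0.45. In row 1 alone it was −0.44. The probe of the long pentraxin PTX3 was well above background on 0 arrays. Those of PTX4 and the neuronal pentraxin NPTX1 were measured, with differences of −0.30 (SE 0.25) and −0.0060 (SE 0.31).

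**Figure D3:**
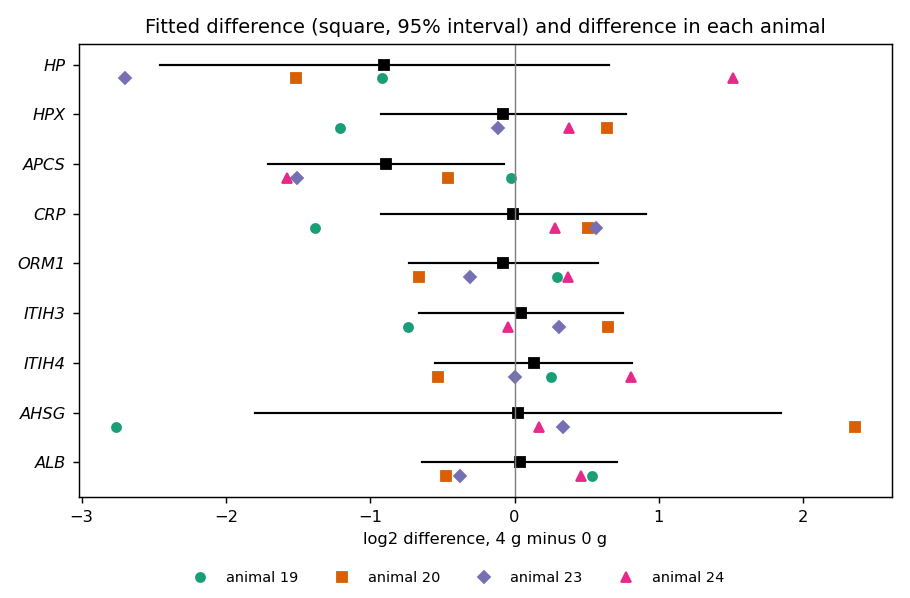
Log2 difference, 4 g minus 0 g, of each measured gene: black squares with lines are the limma estimate and its 95% interval, and coloured symbols below them are the 4 animals. Of the 9 intervals that of APCS (−1.71 to −0.074) leaves out 0 before adjustment, and those of HP and AHSG are the widest.

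Serum amyloid A proteins ride on high-density lipoprotein and rise steeply in bovine inflammation. The SAA3 probe read −6.41, −6.69, −6.95 and −8.20 at 0 g in animals 19, 20, 23 and 24, and −6.81, −7.26, −6.37 and −7.67 at 4 g. These readings lay below the dimmest probe well above background on each array, whose level was −6.10 to −4.63, so they give only a bound and were not tested. The SAA2 probe was well above background on 1 array and that of SAA4 on 0. The probe of the related M-SAA3.2 was well above background on 8 arrays. It stood at −0.26, 1.56, −1.37 and −1.55 at 0 g in animals 19, 20, 23 and 24, and at −1.03, −0.60, −2.10 and 0.38 at 4 g. Its differences of −0.77, −2.16, −0.73 and 1.93 had the sign of the HP difference in each animal. The share of all tested probes with the same signs was not counted, and a link to HP was not tested. The fitted difference of M-SAA3.2 was −0.43 (SE 0.62, limma adjusted p = 1.00). The serum amyloid A genes are closely related copies, so which of them a probe reads is uncertain.

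Orosomucoid is a lipocalin that carries basic drugs and dampens leukocyte activity. ORM1 stood at 7.87, 8.66, 7.80 and 7.60 at 0 g in animals 19, 20, 23 and 24, and at 8.16, 8.001, 7.49 and 7.97 at 4 g. The highest level was on the dim 0 g array of animal 20, and the groups overlapped. Before scaling, the ORM1 signal was 49232 there, 34817 on the dim 4 g array of animal 19 and 53998 to 58667 on the other 6. The 75th percentile of those 6 arrays ran from 218.0 to 311.7. Whether readings flatten at such high signals, which would raise the scaled level on dim arrays, was not tested. The log2 difference was −0.077 (SE 0.27, 95% interval −0.73 to 0.58, limma adjusted p = 1.00), with 2 animals lower and 2 higher, and −0.19 in row 1 alone. Among 6 measured relatives of orosomucoid, fetuin and albumin 0 passed, with 3 lower and 3 higher. The lipocalin APOD was at −1.10 (SE 0.58), the fetuin FETUB at 0.36 (SE 0.27) and the albumin relative AFM at 0.26 (SE 0.30). APOD differed by −2.15, −0.056, 0.54 and −2.74 in animals 19, 20, 23 and 24, so its value rests on animals 19 and 24.

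Heavy chains of the inter-alpha-trypsin inhibitor, ITIH3 among them, bind hyaluronan and steady the matrix around cells. ITIH4 is a positive acute phase protein in cattle. ITIH3 stood at 5.73, 4.37, 5.09 and 5.35 at 0 g in animals 19, 20, 23 and 24, and at 4.99, 5.02, 5.39 and 5.31 at 4 g. The 0 g arrays enclosed all 4 g arrays. ITIH4 stood at 7.81, 8.07, 7.30 and 7.17 at 0 g, and at 8.06, 7.54, 7.30 and 7.97 at 4 g. It was higher at 4 g in 3 of 4 animals, one of them animal 23 with a difference of 0.00043, and the groups overlapped. The log2 differences were 0.043 (SE 0.29, 95% interval −0.66 to 0.75) for ITIH3 and 0.13 (SE 0.28, 95% interval −0.55 to 0.82) for ITIH4, each with a limma adjusted p of 1.00. In row 1 alone they were −0.046 and −0.14. Of their relatives, ITIH5, well above background on 6 arrays, was at −0.63 (SE 0.27), ITIH1 at 0.22 (SE 0.26) and ITIH2 at 0.28 (SE 0.44), and 0 of these 3 passed (limma unadjusted p = 0.0550, 0.416 and 0.539). ITIH5 stood at −5.85 at 4 g in animal 24, below the dimmest probe well above background on that array (−5.57). The size of the ITIH5 difference is therefore uncertain. The probe of AMBP, the gene of the light chain bikunin, was well above background on 0 arrays.

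Fetuin-A is a hepatocyte glycoprotein that keeps calcium phosphate in solution, and albumin is the most abundant plasma protein. AHSG stood at 7.27, 4.57, 6.36 and 6.47 at 0 g in animals 19, 20, 23 and 24, and at 4.51, 6.93, 6.70 and 6.64 at 4 g. Each dose thus held 1 array near 4.5 and 3 above 6.3, and the 2 low arrays were the dim ones. The mean difference was 0.025 (SE 0.76, 95% interval −1.80 to 1.85, limma adjusted p = 1.00). It came from −2.77 in animal 19 and 2.36 in animal 20, and was 0.34 and 0.17 in animals 23 and 24. In row 1 alone it was −0.20. The value was 0.96 without animal 19, and −0.75 without animal 20. ALB stood at 6.71, 7.05, 6.55 and 6.11 at 0 g, and at 7.25, 6.57, 6.17 and 6.57 at 4 g, with its highest levels on the same dim arrays. Its difference was 0.037 (SE 0.28, 95% interval −0.64 to 0.71, limma adjusted p = 1.00), and 0.030 in row 1 alone.

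The dim arrays parted the members further. On 6 of 9 genes the 2 dimmest arrays did not overlap with the other 6, where 44.2% of tested probes behaved so. AHSG was lower there by −2.19 on the log2 scale, HPX by −0.74 and ITIH3 by −0.64, and ALB was higher by 0.71, ORM1 by 0.62 and ITIH4 by 0.55, with a median of 0.12 over all tested probes. AHSG, with 4.51 and 4.57 on the dim arrays and 6.36 to 7.27 on the others, was at the 1.49 percentile of all tested probes in this difference. These signs held with normexp background correction, quantile normalization, median centring and the deposited table. With quantile normalization ORM1 and ITIH4 overlapped between the dim arrays and the others (0.037 and 0.095), and ORM1 lay below the median of 0.078 over all tested probes. ORM1 overlapped with normexp too, and ITIH3 with median centring. For AHSG the difference was −2.31 to −2.19 under these settings. The probes of ORM1 and ITIH4 hold AATAAA as printed above, and those of the other 8 members do not. AATAAA is in 9.51% of all probes as printed, and its reverse complement TTTATT in 3.40%. Over all tested probes the median difference between the dim arrays and the others was 0.25 for the 1214 with AATAAA and 0.099 for the 9771 without. For the 416 with TTTATT it was 0.19, so the shift was not particular to AATAAA. The part of RNA quality in these differences was not tested. One dim array is at 4 g and the other at 0 g, in different animals. Without both, and with no block, the dose difference of AHSG was 0.053.

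**Figure D4:**
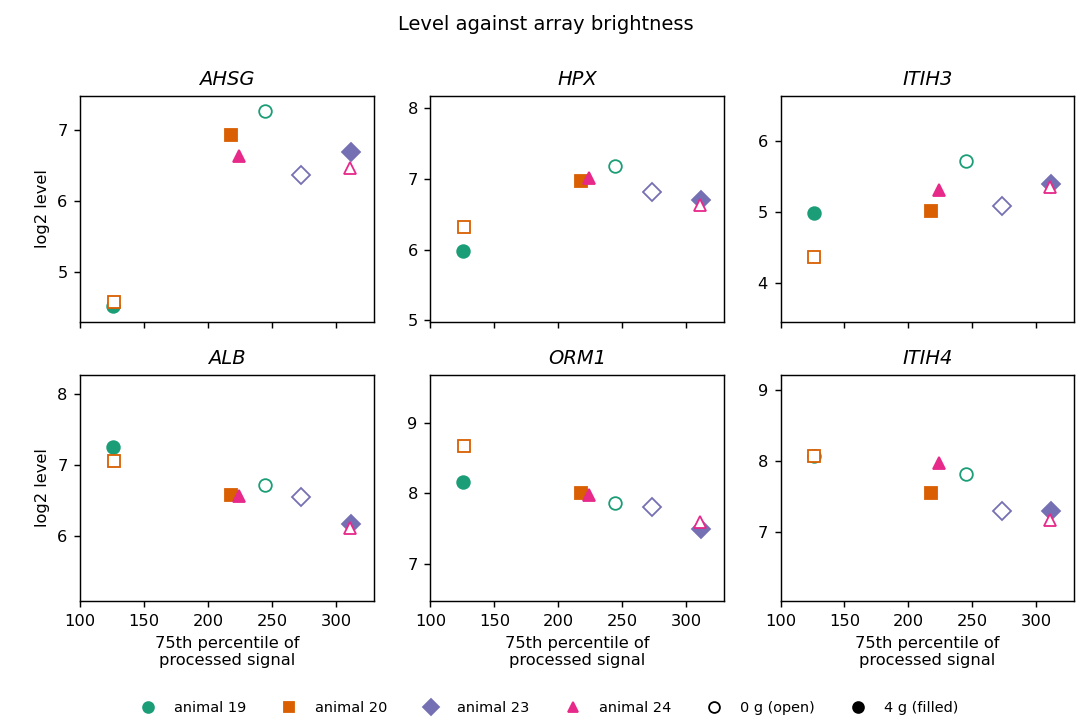
Log2 level of 6 genes against the brightness of the array, the 75th percentile of its processed signal on a linear scale, with open symbols for 0 g and filled symbols for 4 g. The 2 arrays near 126 are lowest for AHSG, HPX and ITIH3 and highest for ALB, ORM1 and ITIH4.

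Pairs of members ran together or opposite ways across the 8 arrays. HPX and AHSG ran together with a Pearson r of 0.928, and so did ITIH4 and ALB (0.863), ORM1 and ALB (0.833) and ITIH3 and AHSG (0.786). The most opposed pairs were ORM1 and ITIH3 (−0.806) and AHSG and ALB (−0.730). These are descriptions over arrays that share their brightness, and the dim pair lies at the end of each. Among 10577 named genes the most like ALB were the chaperone gene CLU (0.997), USP47 (0.993) and TTR (0.990), itself a negative acute phase gene and one of the hepatocyte markers. The most like HPX were TMEM222 (0.996), TPST1 (0.991) and the complement gene C3 (0.989), a positive acute phase gene. Those most like AHSG were NABP2 (0.993), ITGB5 (0.993) and GATD1 (0.991). For ITIH3 they were TMEM177 (0.989), PLS1 (0.970) and ERCC2 (0.967), for ITIH4 ILVBL (0.987), ENPP2 (0.982) and PRKAR2A (0.967), and for ORM1 WDR52 (0.983), SYNGR3 (0.982) and PYGO1 (0.979). CRP was most like USP11 (0.983) and SEPTIN2 (0.969).

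HP and APCS overlapped between the dim arrays and the others. The genes most like HP were TCF3 (0.950), ASAH2 (0.948) and SND1 (0.934), and the most opposed were PRPH (−0.909), the quinone reductase NQO1 (−0.879) and AUH (−0.878). NQO1 was highest, at 1.99, on the 4 g array of animal 23, where HP was lowest. It was picked for running opposite to HP, so this follows from the choice. For APCS the likest were VWA3B (0.945), ADCY4 (0.939) and ATP6V1C2 (0.938), and the most opposed RAB40B (−0.946), RNF186 (−0.932) and ERGIC3 (−0.924). ERGIC3 is one of the 13 genes with 2 levels that parted row 2 by dose: it stood at −2.81 and −3.12 at 0 g in animals 23 and 24 and at −0.48 and −0.81 at 4 g. It too was picked by its r, here with APCS, so its opposite levels add no separate finding.

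Other genes of the acute phase response were read beside the members. Of 23 other measured positive acute phase genes 0 passed limma's adjusted p (1 at an unadjusted p under 0.05), 15 being below 0 and 8 above (median −0.030). Over all tested probes 5095 were below 0 and 5890 above. The median was −0.027, −0.19, −0.10 and 0.19 in animals 19, 20, 23 and 24. Those of smallest p were the iron hormone HAMP at −0.94 (SE 0.35), the LPS-binding protein LBP at −0.44 (SE 0.24) and the fibrinogen chain FGB at −0.29 (SE 0.33). In animals 19, 20, 23 and 24 FGB differed by −1.35, 0.40, −0.10 and −0.098, and animals 19 and 20 each hold 1 dim array. Of 19 other negative acute phase genes 0 passed (0 at an unadjusted p under 0.05), with 4 below 0 and 15 above and a median of 0.079, against 0.018 over all tested probes. The fetuin FETUB, the tyrosine aminotransferase TAT at 0.37 (SE 0.31) and the growth factor IGF1 at 0.34 (SE 0.31) had the smallest p. By animal, in the order 19, 20, 23 and 24, the median was −0.028, 0.058, 0.28 and 0.26.

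Upstream of these genes, 21 of the 25 listed inducers were measured and 0 passed (0 at an unadjusted p under 0.05), with 8 lower and 13 higher (median 0.036). The 8 lower include SOCS3, whose sign is uncertain. The probes of IL6 and CEBPB were well above background on 0 arrays. SOCS3, the feedback inhibitor that STAT3 switches on, stood at −4.96, −3.96, −4.69 and −5.57 at 0 g in animals 19, 20, 23 and 24. At 4 g it was well above background in animal 24 alone, at −5.18. It entered the test through the 0 g group, and no size or sign of its difference is given for the animals whose 4 g array was not well above background. STAT3 was at −0.74 (SE 0.51), with its lowest level, −2.30, on the dim 4 g array of animal 19, and the glucocorticoid receptor NR3C1 at 0.29 (SE 0.25).

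Between animals, 0 of 9 members and 0% of 10985 tested probes differed in limma's F-test at an adjusted p under 0.05 (unadjusted p under 0.05 for 2.74% of probes). The unadjusted p of the members ran from 0.338 for ALB to 0.959 for HPX. This test takes the animal numbers as labelled, and in row 2 the probes with 2 levels parted the arrays by dose on 41 and by animal on 2.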

How the data were processed

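Arrays were 1-colour Agilent slides with 60-base probes and Cy3-labelled RNA, all 8 on 1 slide. Spot intensity values were deposited as processed signal from Agilent Feature Extraction 11.0.1.1 per the file headers (9.5 per the submitters' processing notes), with background subtracted, spatial trend removed and no scaling between arrays. The authors also deposited a series table of log2 values. Against log2 of the processed signal each column had an r of 1.00, and the columns were centred near the 75th percentile, with medians from −3.04 to −2.84.

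Here log2 of the processed signal was averaged over the spots of a probe, 48 outlier spots left out, and each array's 75th percentile over 15008 probes subtracted. Probes well above background on at least 4 arrays (10985) entered limma 3.58.1 (R 4.3.3, lmFit and eBayes, 2-sided), with animal as a block, since the design gives each animal every dose, and Benjamini-Hochberg adjustment at 0.05 over all of them. The fit was tested on simulated data. The 2 arrays of each animal were compared by their deviations from the group means, with r of −0.19, −0.18, 0.21 and 0.13 (animals 19, 20, 23 and 24), so the pairing rests on the labels. The SD beside a mean is over 4 animals.

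Probes were taken by the file's symbols, and other genes were named by transcript accession in RefSeq (ARS-UCD2.0, names alone) for 11194 probes, by current symbol for 3085 and by the file for 729. Members and lists were chosen with earlier results of these data known. Named genes were all members, up to 3 per list by smallest unadjusted p, and the 3 most alike by Pearson r (for HP and APCS also the 3 least alike). One gene that this rule names is not reported here. Likeness and 2-level genes are descriptions with no test. Alternatives were another background correction, scaling, filter, weights, variance model, block and sets of arrays. The 2 g dose was not analysed here.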

Additional observations from a re-analysis of the deposited data

Results flagged for a closer look

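On the 4 g array of animal 19 AHSG stood at 4.51, apart from the other 3 arrays of its group at 6.64 to 6.93. The gap to the nearest array was 0.878 of the group's whole range, above Dixon's 95% critical value for 4 samples. It was 1 of 18 groups of 4 arrays screened, and chance alone sets apart about 1 in 20. The same array was the dimmest of the 8, and its part in the low value was not tested. The 0 g array of animal 20, nearly as dim, had the next lowest AHSG, at 4.57.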

How the results depend on the processing

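Each member's difference was recomputed under 18 alternatives, 1 of them, array brightness as a covariate, chosen after seeing the data. None of the 162 values passed limma's adjusted p, and 128 kept their sign. Changing only the filter, the variance model or the block leaves each difference as it was, so those signs were fixed in advance. The deposited table held the same signal with nearly the same centring. HP (−1.71 to −0.31) and APCS (−1.55 to −0.24) kept theirs in all 18. Signs of differences near 0 turned, and the cause was not tested: with normexp HPX 0.0065 and CRP 0.062; with quantile normalization ORM1 0.0036 and ITIH3 −0.0068; with median centring CRP 0.033; with array weights HPX 0.046, CRP 0.26 and ALB −0.033. In slide row 1 alone ITIH3 was −0.046, ITIH4 −0.14 and AHSG −0.20, and in row 2 alone HPX was 0.13, CRP 0.42 and ORM1 0.031. Without the 2 dimmest arrays and with no block HPX was 0.015, CRP 0.14, ORM1 0.066, ITIH3 −0.15 and ALB −0.018, and 5 probes, none of a member, passed the threshold. With brightness as a covariate HPX was 0.016, CRP 0.10 and ALB −0.039. Leaving out 1 animal in turn gave ranges of −0.32 to 0.30 (HPX), −0.20 to 0.45 (CRP), −0.23 to 0.12 (ORM1), −0.16 to 0.30 (ITIH3), −0.093 to 0.35 (ITIH4), −0.75 to 0.96 (AHSG) and −0.13 to 0.21 (ALB), and 0 to 1 probes that differed between animals, with 1 also in row 1 alone. With no replicate block HP was −0.90 and APCS −0.89, as must follow with 1 array per animal and dose, and 0 probes passed. Probes at an unadjusted p under 0.05 numbered 121 in the fit reported, 17 with normexp and 406 with array weights.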
